A study of Ovis aries with 16 samples.

Results

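Microglia are the resident phagocytes of the brain, and macrophages enter it from the blood and the meninges. Both bind antibody-coated particles through Fc receptors, attach to complement-coated targets and to vessel walls through integrins, and digest what they take up with proteases and lysozyme in lysosomes. The expression of 7 genes of this kind was followed in the frontal cerebral cortex of fetal sheep: the Fc receptor genes FCER1G, FCGR1A and FCGR2B, the integrin gene ITGAM, the cathepsin genes CTSS and CTSB, and the lysozyme gene LYZ. The genes were chosen by name, as every probe of the array that is not a control and is named for 1 of them in the files or through its transcript record, and they were represented by 10 of 15008 different probes.

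RNA came from 16 late gestation fetuses with chronic vascular catheters, 1 array per fetus, in 4 groups: normoxia control (n = 3), normoxia + ketamine (n = 4), hypoxia control (n = 5) and hypoxia + ketamine (n = 4). Hypoxia was produced by adding nitrogen to the gas breathed by the ewe for 30 min, ketamine, a blocker of the NMDA type of glutamate receptor, was injected into the fetal vein at 3 mg/kg before the stimulus, and cortex was collected 24 h after its onset, after 23.5 h of normoxic recovery in all groups. Nearly all fetuses were twins, and the labels do not say which of them shared a ewe. The labels of hypoxia control replicate 1 conflict, since its title places it in the hypoxia control group while 2 other label fields describe normoxia with ketamine, so results that change without it or with the other label are given both ways.

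Each value is the brightness of a spot of 60-base DNA probes that bind the labelled RNA, on the log2 scale after normalization, so that a difference of 1 is a doubling. Levels of different probes cannot be compared with each other. The probes of CTSS and FCGR1A are shown because the single value of each gene rests on 1 probe, and both LYZ probes because their results differ below. They are written 5′ to 3′ as the deposited files give them, and capitals mark the 40 bases that the LYZ probes share.
CTSS: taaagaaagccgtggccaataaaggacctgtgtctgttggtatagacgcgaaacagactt
FCGR1A: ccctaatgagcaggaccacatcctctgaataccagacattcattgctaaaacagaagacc
LYZ: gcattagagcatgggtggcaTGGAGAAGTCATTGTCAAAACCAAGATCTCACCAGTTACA
LYZ second probe: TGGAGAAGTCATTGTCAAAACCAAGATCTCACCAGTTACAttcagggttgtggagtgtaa

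The second LYZ probe begins 20 bases further along the transcript, and the 2 probes of FCER1G begin 1 base apart and share 59 bases. Probes of a gene are therefore repeat readings of nearly the same stretch and not independent measurements. Over the 16 arrays the LYZ probes correlated at 0.93 and those of FCER1G at 0.92, whereas the ITGAM probes, which also share 40 bases, correlated at 0.19. No probe of these genes shared a run of more than 14 bases with a probe outside its own gene.

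CTSS, CTSB, FCER1G and FCGR1A were well above background, by the scanner's own criterion, on 16 of 16 arrays. LYZ passed on 8 of 16 arrays with either probe, ITGAM on 4 with either probe, and FCGR2B on 2, so most values of these 3 genes are close to the limit of the method. No member was saturated or missing on any array. Whether the tissue signal belongs to microglia could not be checked with their defining genes, since none of 20 microglial genes looked for, among them AIF1, CX3CR1, CSF1R and TYROBP, is among the 1025 genes named on the array. In whole cortex, more cells of a type and more RNA per cell cannot be told apart.

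**Figure D1:**
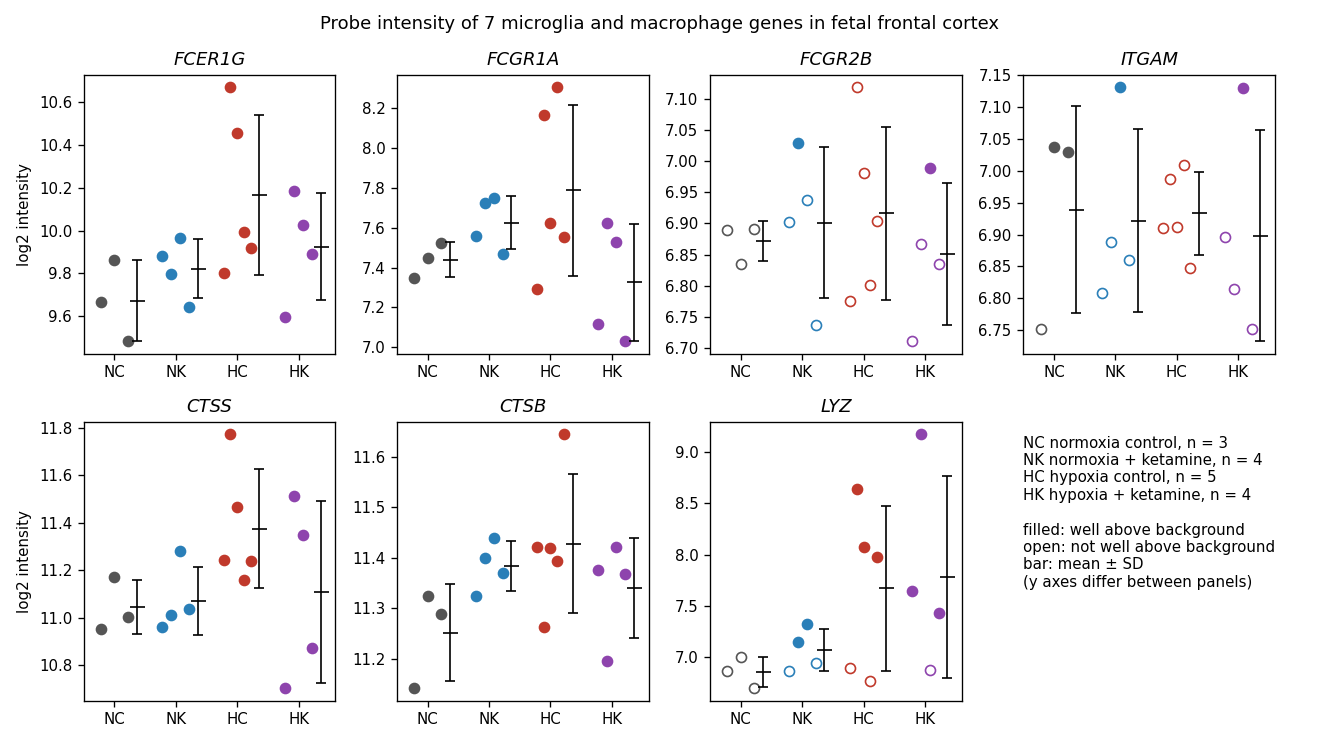
Normalized log2 intensity (y axis, which differs between panels) of the 7 genes in each fetus of the 4 groups (x axis), with filled circles for arrays on which the probe was well above background, open circles for arrays on which it was not, and bars for the mean ± SD. The highest FCER1G values lie in the hypoxia control group, FCGR1A spreads widely after hypoxia, and most circles of FCGR2B and ITGAM are open.

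The first question was what hypoxia alone did to these genes, by comparison of hypoxia control with normoxia control. FCER1G and CTSB were higher after hypoxia at an unadjusted P under 0.05, the threshold of the study's methods, which makes 2 of 7 genes against 3.34% of all probes called higher. The median difference of the 7 genes was 0.33, against -0.020 over all probes, and the 4 genes measured above background on every array were all on the higher side, with a median of 0.34. Without normoxia control replicate 3 the count was 0 of 7, without hypoxia control replicate 1 it was 3 of 7, FCER1G, FCGR1A and LYZ, and with that array placed in normoxia + ketamine it was 4 of 7, CTSB included. After Benjamini-Hochberg adjustment over all probes in limma, 0 of 7 genes and 0 of 15008 probes passed, where 1197 probes (7.98%) passed unadjusted, and the lowest adjusted P was 0.317 over all probes and 0.521 among these genes. Of the probes called, 501 were higher and 696 lower, but this split turned to 560 and 438 when the scanner's processed signal was scaled to the 75th percentile of each array, and to 137 and 57 when background-corrected signals were scaled in that way.

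FCER1G encodes the common gamma chain, the signaling subunit that activating Fc receptors share. Its log2 levels were 9.67, 9.86 and 9.49 in the normoxia controls and 9.80, 10.67, 10.46, 9.99 and 9.92 in the hypoxia controls, in order of replicate number. Of the hypoxia controls, 4 of 5 were above every normoxia control, and replicate 1, the array with conflicting labels, was the exception. The means were 9.67 ± 0.19 (SD, n = 3) and 10.17 ± 0.38 (SD, n = 5), a difference of 0.50 (SE 0.18), or 1.41-fold (limma, unadjusted P = 0.0165, adjusted P = 0.521). The two-sided exact permutation test over fetuses gave P = 0.0714, where the smallest value this design allows is 0.0357. FCER1G was called in 12 of 12 other ways of processing or fitting the data and with 15 of 16 arrays left out in turn. Without hypoxia control replicate 1 the difference was 0.59, and without normoxia control replicate 3, the lowest control, it was 0.40 and not called. The second FCER1G probe differed by 0.44 (SE 0.21, unadjusted limma P = 0.0596, exact permutation P = 0.143).

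FCGR1A encodes the high-affinity receptor for immunoglobulin G, which is carried to the cell surface with the common gamma chain. Its log2 levels were 7.35, 7.45 and 7.52 in the normoxia controls and 7.29, 8.16, 7.62, 8.30 and 7.55 in the hypoxia controls. Replicates 2 and 4 of the hypoxia controls were far above the others, and replicate 1 was below every normoxia control. The difference of 0.35 (SE 0.20) was not called (unadjusted limma P = 0.102, exact permutation P = 0.250). When replicate 1 was left out, or was counted as normoxia + ketamine, it was 0.47 and was called.

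FCGR2B encodes the inhibitory Fc receptor of macrophages and B cells, and ITGAM encodes the alpha chain of complement receptor 3, the CD11b antigen used to mark microglia and other myeloid cells. FCGR2B was not well above background on any of the 3 normoxia controls or 5 hypoxia controls, with log2 levels from 6.83 to 6.89 and from 6.78 to 7.12. The first ITGAM probe was well above background on 2 of 3 normoxia controls and on 0 of 5 hypoxia controls, with log2 levels from 6.75 to 7.04 and from 6.85 to 7.01, and the second on 1 of 3 and 2 of 5. The range of each gene in one group overlapped that in the other, and no fold change can be given for either gene at these signals.

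CTSS encodes cathepsin S, a lysosomal cysteine protease of antigen-presenting cells that trims the invariant chain of MHC class II molecules. Its log2 levels were 10.95, 11.17 and 11.01 in the normoxia controls and 11.24, 11.77, 11.47, 11.16 and 11.24 in the hypoxia controls. Of the hypoxia controls, 4 of 5 exceeded every normoxia control, and replicate 4 lay just below the highest of them. The difference of 0.33 (SE 0.17), or 1.26-fold, was not called (unadjusted limma P = 0.0740, exact permutation P = 0.0714). It passed the threshold with only these groups in the fit, at the same difference, without hypoxia control replicate 4 (0.39), and without hypoxia + ketamine replicate 1 or 2, which leave the difference as it is. It also passed with the replicate number as a block in the fit.

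CTSB encodes cathepsin B, a cysteine protease found in the lysosomes of most cell types. Its log2 levels were 11.14, 11.32 and 11.29 in the normoxia controls and 11.42, 11.26, 11.42, 11.39 and 11.64 in the hypoxia controls. The 4 hypoxia controls other than replicate 2 were above every normoxia control. The difference was the smallest of the called ones, 0.18 (SE 0.078), or 1.13-fold (unadjusted limma P = 0.0394, adjusted P = 0.610, exact permutation P = 0.107). The call of CTSB was lost in 7 of 12 other ways of processing or fitting, over which the difference stayed between 0.12 and 0.19, and without normoxia control replicate 1 or 3 or hypoxia control replicate 1, 3 or 5, when it was between 0.12 and 0.20.

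LYZ encodes lysozyme, which cleaves bacterial cell walls and is abundant in the granules of macrophages and neutrophils. Its log2 levels with the brighter probe were 6.87, 7.00 and 6.70 in the normoxia controls, none of them well above background, and 6.89, 8.64, 8.07, 6.77 and 7.98 in the hypoxia controls. Hypoxia controls 2, 3 and 5 were well above background and above every normoxia control, and the other two lay within the normoxia range. The measured means were 6.86 ± 0.15 (SD, n = 3) and 7.67 ± 0.81 (SD, n = 5) (limma adjusted P = 0.697, exact permutation P = 0.214). With the dim normoxia controls held at a floor, the hypoxia control mean was 1.61-fold higher, with 3 of 5 arrays measured above background. The floor sets each normoxia control at the lowest signal among probes well above background on it, where that exceeds the probe's own signal. Normoxia control 2 kept its own 7.00, since that lowest signal was 5.72 on it. The fold is not a strict lower bound, since the dim hypoxia controls 1 and 4 entered at their measured values. The second probe gave 1.58-fold in that way, with 4 of 5 hypoxia controls well above background (limma adjusted P = 0.621 for the measured difference). With it the groups did not overlap, which was so in the higher direction for 2.11% of probes, and the exact permutation P was 0.0357, the smallest possible. The probes disagreed most on hypoxia control 4, at 6.77 with the first and 7.50 with the second. These folds hold for the processing used here, since the measured log2 difference of the first probe, 0.81, ran from 0.52 to 2.52 over 11 other ways of processing or fitting and from 0.57 to 1.04 with arrays left out. It was called by limma without hypoxia control replicate 1 or 4 or hypoxia + ketamine replicate 2, against normoxia controls that remain below the background criterion.

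**Figure D2:**
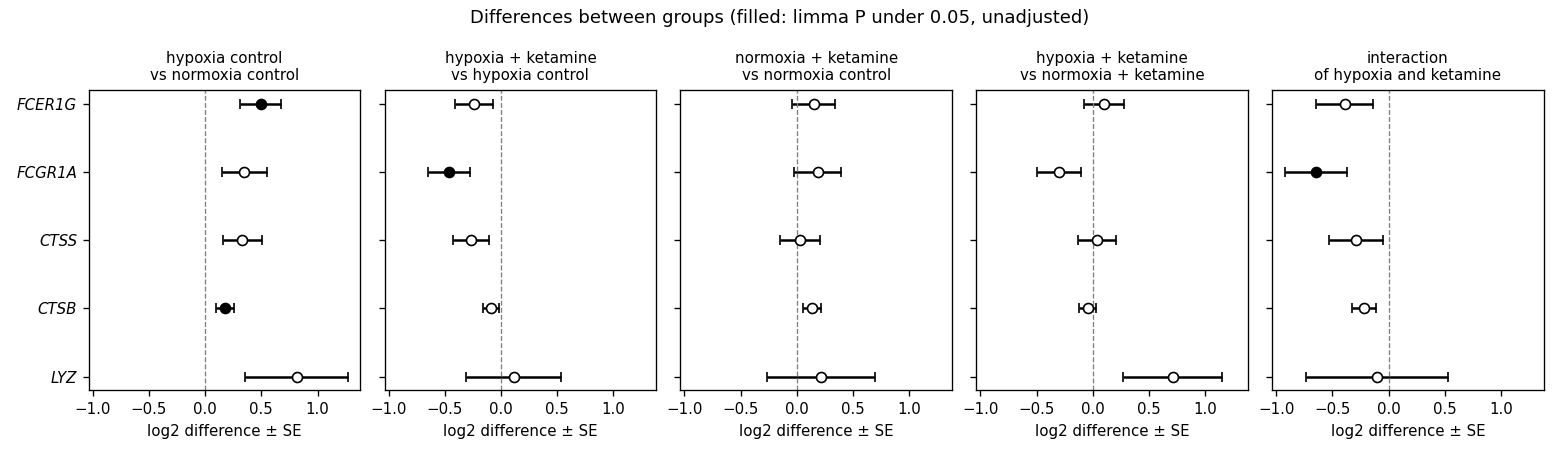
Log2 difference ± SE (x axis) of the 5 genes that were well above background on at least 8 arrays (y axis) in the 4 comparisons and the interaction from limma, with filled circles for an unadjusted P under 0.05. All 5 genes lie to the right of 0 in the comparison of hypoxia control with normoxia control, LYZ against controls below the background criterion, and FCGR1A is the only one to the left of 0 by a called amount with ketamine.

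The second question was whether ketamine before hypoxia changed these levels, by comparison of hypoxia + ketamine with hypoxia control. This comparison shares the hypoxia control arrays with the first, so that an array that is high there raises the one and lowers the other. FCGR1A was lower with ketamine and 0 of the other 6 genes were called, which makes 1 of 7 genes against 3.56% of all probes called lower. The median difference of the 7 genes was -0.088, against 0.018 over all probes, and that of the 4 genes measured above background on every array was -0.25. After adjustment over all probes in limma 0 of 7 genes passed, and the lowest adjusted P among them was 0.517.

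The FCGR1A levels after hypoxia + ketamine were 7.12, 7.62, 7.53 and 7.03. Replicates 1 and 4 were below every other array of the series, and none of the 4 reached hypoxia controls 2 and 4. On replicates 1 and 4 FCGR1A was well above background but dim, with raw spot signals of 76.7 and 62.2. The lowest log2 values of probes well above background on these arrays were 6.88 and 6.92, so the size of the difference is uncertain. The mean was 7.33 ± 0.29 (SD, n = 4), a difference of -0.46 (SE 0.18) from the hypoxia controls at 7.79 ± 0.43 (SD, n = 5), or 0.726-fold (unadjusted limma P = 0.0242, adjusted P = 0.517, exact permutation P = 0.111). The smallest permutation P this design allows is 0.0159 by the exact test. The call was lost without hypoxia control replicate 2 or 4 or hypoxia + ketamine replicate 1 or 4, when the difference was between -0.39 and -0.33, and was kept with 12 of 16 arrays left out in turn and in 10 of 12 other ways of processing or fitting. Over those ways the difference ran from -1.04, with the scanner's processed signal scaled to the 75th percentile, to -0.23, with background-corrected signals so scaled.

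FCER1G, CTSS and CTSB were not called, and their differences were within the spread of the fetuses. FCER1G was at 9.59, 10.19, 10.03 and 9.89 after hypoxia + ketamine, a difference of -0.24 (SE 0.17, exact permutation P = 0.317). CTSS was at 10.71, 11.51, 11.35 and 10.87, so that this group held both the lowest and, after hypoxia control 2, the highest CTSS level of the series, and the difference was -0.27 (SE 0.16, exact permutation P = 0.238). Without hypoxia + ketamine replicate 2 the CTSS difference was -0.40 and was called, and CTSS was also called with the replicate number as a block. CTSB was at 11.38, 11.19, 11.42 and 11.37, a difference of -0.088 (SE 0.072, exact permutation P = 0.302).

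The LYZ levels after hypoxia + ketamine were 7.65, 9.17, 6.88 and 7.43, and replicate 2 was the highest array of the series with both probes. LYZ was well above background on 3 of these 4 arrays. The group means differed by 0.11 (SE 0.42, exact permutation P = 0.841), with the sign turned to -0.35 without hypoxia + ketamine replicate 2. Within the slides that carried the arrays, LYZ differed by 0.64 on slide 1 (2 arrays against 2) and by -0.45 on slide 2 (2 arrays against 3).

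The third comparison set normoxia + ketamine against normoxia control, to see what ketamine did without hypoxia. By limma 0 of 7 genes were called, against 2.31% of all probes in either direction, and the lowest adjusted P was 1.00. CTSB was at 11.32, 11.40, 11.44 and 11.37 with ketamine, above every normoxia control, a difference of 0.13 (SE 0.082) that was not called. The exact permutation P was 0.0571, the smallest that 4 fetuses against 3 can give, and groups without overlap in the higher direction were found for 1.99% of probes. FCGR1A was at 7.56, 7.72, 7.75 and 7.47, with 3 of 4 arrays above the normoxia controls, a difference of 0.19 (SE 0.21, exact permutation P = 0.114). FCER1G was at 9.88, 9.80, 9.96 and 9.64, a difference of 0.15 (SE 0.19, exact permutation P = 0.343). CTSS differed by 0.027 (SE 0.18, exact permutation P = 0.686), at 10.96, 11.01, 11.28 and 11.04. LYZ was at 6.86, 7.15, 7.32 and 6.95, with 2 of 4 arrays well above background (limma adjusted P = 1.00 for the measured difference). With the normoxia controls held at the floor it was 1.06-fold higher by the first probe, dim normoxia + ketamine arrays entering at their measured values. The second LYZ probe was well above background on 1 of 4 normoxia + ketamine arrays and gave no fold above 1 in that way.

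The effect of hypoxia under ketamine was read from hypoxia + ketamine against normoxia + ketamine. Again 0 of 7 genes were called by limma, against 6.86% of all probes in either direction. The differences were 0.10 (SE 0.18) for FCER1G, 0.038 (SE 0.17) for CTSS and -0.044 (SE 0.076) for CTSB, with exact permutation P between 0.457 and 0.886. FCGR1A was lower by a difference of -0.30 that was not called (SE 0.19, exact permutation P = 0.143). LYZ differed by 0.71 (SE 0.44, exact permutation P = 0.143), and its second probe by 0.88 (SE 0.40, unadjusted limma P = 0.0441, adjusted P = 0.714, exact permutation P = 0.114), with 3 of 4 hypoxia + ketamine arrays above every normoxia + ketamine array. Without hypoxia + ketamine replicate 3 the first probe differed by 1.01 and was called. On slide 1 the LYZ difference was 1.40 and on slide 2 it was 0.019, each from 2 arrays against 2.

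Whether the effect of hypoxia differed with and without ketamine was tested by the interaction term in limma. FCGR1A had an interaction of -0.65 (SE 0.28, limma adjusted P = 0.772), its hypoxia difference being 0.35 without and -0.30 with ketamine. It was the 1 gene of 7 called, against 2.41% of all probes called lower. The other 6 genes were not called, with FCER1G at -0.39 (SE 0.25), CTSS at -0.29 (SE 0.24) and CTSB at -0.22 (SE 0.11). CTSB passed the threshold without normoxia control replicate 2 (-0.26), hypoxia control replicate 2 (-0.26) or hypoxia + ketamine replicate 3 (-0.25). FCER1G passed it with the replicate number as a block. LYZ was at -0.10 (SE 0.64), and its second probe at 0.011 (SE 0.57). The FCGR1A interaction lay between -0.77 and -0.52 with each of 16 arrays left out in turn, and was called with 8 of them. It was not called without normoxia control replicate 1 or 2, normoxia + ketamine replicate 2 or 3, hypoxia control replicate 2 or 4, or hypoxia + ketamine replicate 1 or 4. With the scanner's processed signal scaled to the 75th percentile it was -1.495. When background-corrected signals were scaled to the 75th percentile in place of quantile normalization, it was 0.096, but that scaling moved the median interaction of all probes to 0.51, and FCGR1A relative to that median was at -0.41. The LYZ interaction turned to 1.095 under the same scaling, 0.59 relative to the median.

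The fetuses of a group differed widely in these genes. Averaged over the 4 genes well above background on all arrays, hypoxia control replicates 1 to 5 lay 0.087, 0.62, 0.39, 0.36 and 0.24 above the normoxia control mean on the log2 scale, and hypoxia + ketamine replicates 1 to 4 at -0.15, 0.28, 0.23 and -0.060. Hypoxia control replicate 2 had the highest level of the series in 3 of 7 genes and was among the highest 2 in 5 of 7. FCGR2B counts in both, though it was not well above background on that array. Hypoxia control replicate 2 was not high in CTSB, in which it had the lowest level of its group. Of the spots of hypoxia control 2, 70.7% were well above background, and of those of hypoxia + ketamine 2, the highest array in LYZ, 70.9%. The range over the arrays was from 69.2% to 76.9%, and the part of this in the high levels of these arrays was not tested.

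**Figure D3:**
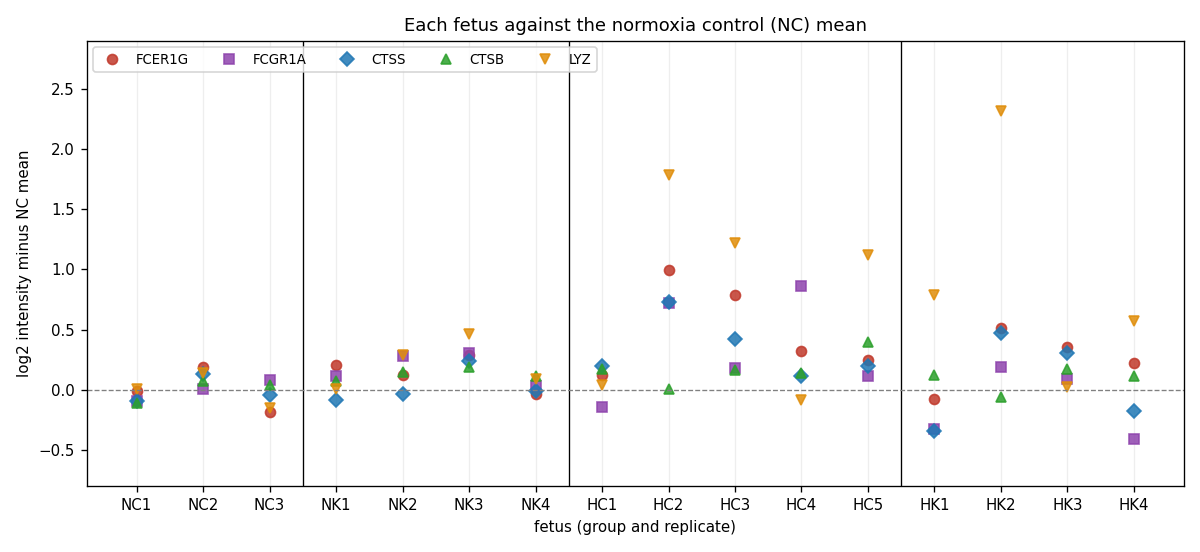
Log2 intensity of 5 genes in each of the 16 fetuses (x axis, by group and replicate, with NC and NK for normoxia without and with ketamine, and HC and HK likewise for hypoxia) minus the normoxia control mean of the gene (y axis). In HC2, FCER1G, FCGR1A, CTSS and LYZ are all high while CTSB is near 0, HC4 is high in FCGR1A, and LYZ is highest in HK2.

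With the group means taken out, CTSS and FCER1G varied together among the 16 fetuses (Pearson r = 0.82, within-group permutation P = 0.00036, adjusted P = 0.0036 over the 10 pairs of 5 genes; Spearman rho = 0.77, permutation P = 0.0041). Without the 2 fetuses farthest from the median in CTSS, hypoxia control 2 and hypoxia + ketamine 2, r was 0.72. The 4 hypoxia + ketamine replicates had the same order in both genes. The other 9 pairs had adjusted permutation P between 0.26 and 0.53. For CTSB r was between -0.47, with FCER1G, and -0.35, with CTSS, with permutation P between 0.182 and 0.335. Without the 2 farthest fetuses r of CTSB was 0.17 with CTSS, -0.13 with FCER1G, -0.12 with FCGR1A and -0.46 with LYZ.

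**Figure D4:**
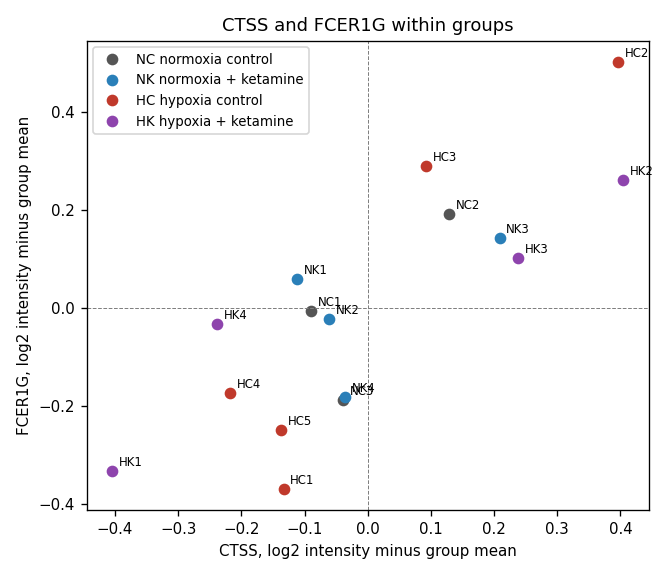
CTSS (x axis) against FCER1G (y axis) in the 16 fetuses, each as log2 intensity minus the mean of its group, with group and replicate beside each point. The points rise together from HK1 at the lower left to HC2 and HK2 at the upper right (r = 0.82).

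Among 635 other named genes, those most like the mean of the members over the 16 arrays were CD86 (r = 0.92), a co-stimulatory receptor of antigen-presenting cells, OVAR (r = 0.85), an MHC class I gene, LOC443295 (r = 0.82), described in the files as beta-2-microglobulin, and ITGB2 (r = 0.77), the beta chain that pairs with the ITGAM product. These r values describe arrays that share group differences, and CD86, OVAR and LOC443295 were also the first 3 with group means taken out (r = 0.89, 0.84 and 0.83). FCER1G was most like CD86 (r = 0.90) and ITGB2 (r = 0.84). CTSS was most like CD86 (r = 0.80) and CYBA (r = 0.77), and with group means taken out CYBA came first (r = 0.77). FCGR1A was most like CD40 (r = 0.82) and MX2 (r = 0.81), an interferon-induced gene, and with group means taken out PSME2 and IFNAR2 came first (r = 0.86 for each). LYZ was most like MHCII-DRB1 (r = 0.80) and stayed so with group means taken out (r = 0.77). CATHL1B (r = 0.73) and CATHL3 (r = 0.72), which encode antimicrobial peptides of neutrophil granules, were among the 5 genes nearest to LYZ over the arrays but not with group means taken out. CTSB was most like SLC12A4 (r = 0.77), a potassium chloride cotransporter gene. COL1A2 (r = 0.68), VIM (r = 0.64), CKB (r = 0.62) and EAAT2 (r = 0.62), a glutamate transporter gene of astrocytes, followed. With group means taken out SLC12A4 was again first for CTSB (r = 0.77), and of the others only CKB stayed among the nearest 5 (r = 0.74).

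Other genes of the same pathways were looked up from hand-written lists. Of the 15008 probes, 13352 carry no gene name here, so that a gene not found may still lie on an unnamed probe. Of 22 macrophage and monocyte genes 5 were found, and in hypoxia control against normoxia control CD14, the co-receptor for bacterial lipopolysaccharide, was higher by 0.95 (SE 0.25, limma adjusted P = 0.320) and CD86 by 0.60 (SE 0.20, limma adjusted P = 0.488), with a list median of 0.60. CD40, CD80 and SPP1 were not called, at 1.45 (SE 0.73), -0.046 and 0.042. The CD40 levels of the hypoxia controls ran from 7.27 to 11.64. With ketamine before hypoxia CD14 was lower by a difference of -0.60 (SE 0.23, limma adjusted P = 0.495) and the list median was -0.37. CD86, CD40, CD80 and SPP1 were not called there, at -0.37, -1.31, -0.012 and 0.014. Of 9 integrin genes, ligands and adaptors 4 were found, and ICAM1, the ligand on vessel walls that complement receptor 3 binds, was 1.14 higher after hypoxia (SE 0.37, limma adjusted P = 0.477) and differed by -0.94 with ketamine (SE 0.34, limma adjusted P = 0.487). ITGB2 was 0.42 higher after hypoxia without being called (SE 0.26). ITGB1 and ITGAL were not called, at 0.032 and 0.023, and ITGAL was well above background on no array.

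The lysosomal genes found outside the members were not called. Of 18 lysosomal proteases and inhibitors 4 were found, CTSD, CTSF, CTSL2 and LGMN, and 0 of 4 were called by limma at an unadjusted P under 0.05 in any comparison, with a median of -0.016 after hypoxia. The same held for 4 of 19 other lysosome genes, HEXA, LIPA, NPC2 and PSAP, with a median of -0.073 and a range from -0.18 for LIPA to 0.12 for PSAP. Of 10 lysozyme and antimicrobial genes 4 were found, and SLC11A1, a metal transporter of the phagosome membrane, was 0.96 higher after hypoxia (SE 0.33, limma adjusted P = 0.488). LTF, NOS2 and LALBA were not called, at 0.24, 0.098 and 0.014. Of 18 genes of Fc receptors and their signaling beside the members FCGRT alone was found, called once, lower by a difference of -0.23 in hypoxia + ketamine against normoxia + ketamine (limma adjusted P = 0.721). The complement gene C3, 1 of 2 found of 15, was called in each of the 4 comparisons, higher by 0.43 after hypoxia and lower by a difference of -0.74 with ketamine before hypoxia, while of 12 MHC class II symbols looked for only DYA was matched, well above background on 0 of 16 arrays and called in none of them. MHCII-DRB1 and OVAR-DQA1, class II genes that the array names by other symbols, were outside that list.

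**Figure D5:**
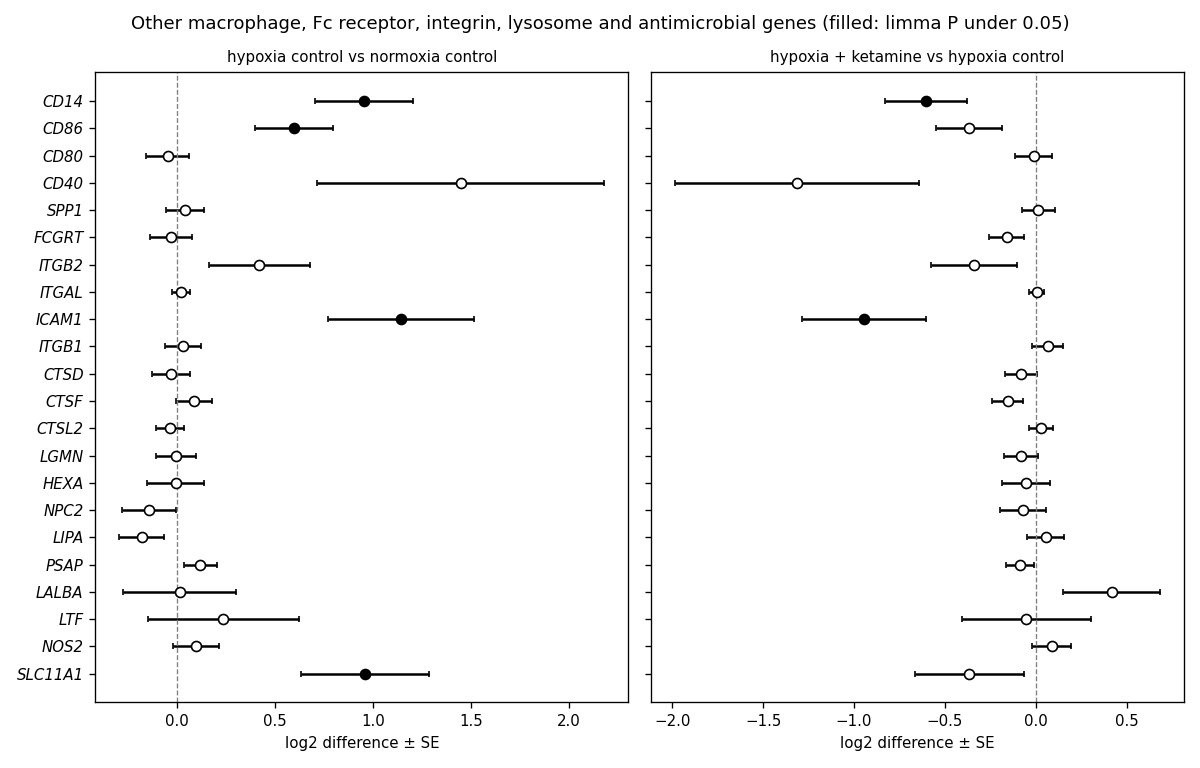
Log2 difference ± SE (x axis) from limma of the 22 genes found from the 6 lists of macrophage, Fc receptor, integrin, lysosome and antimicrobial genes (y axis) in hypoxia control against normoxia control and in hypoxia + ketamine against hypoxia control, with filled circles for an unadjusted P under 0.05. CD14, CD86, ICAM1 and SLC11A1 are filled on the left, CD14 and ICAM1 on the right, and no lysosomal gene is filled.

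Several of these genes are also expressed by other cells that cortex can hold. Of 17 neutrophil genes 3 were found, MMP9, CYBB and CYBA, and 0 of 3 were called by limma at an unadjusted P under 0.05 in any comparison. Since MMP9 was well above background on 0 of 16 arrays and CYBB on 2, this reading rests on CYBA, which many cell types express. Their summed linear level was between 925 and 991 in the normoxia controls, 941 and 1199 with normoxia + ketamine, 1035 and 1243 in the hypoxia controls and 804 and 1193 with hypoxia + ketamine, highest in hypoxia control 2. Of 15 lymphocyte genes 4 were found, and CD5 was 0.90 higher after hypoxia (SE 0.23, limma adjusted P = 0.317) and differed by -0.46 with ketamine before it, also called, with summed levels of the 4 between 616 and 746 in the normoxia controls, 681 and 745 with normoxia + ketamine, 697 and 1079 in the hypoxia controls and 665 and 884 with hypoxia + ketamine. The other 3 lymphocyte genes, CD3D, CD3E and CD4, were not called, and the defining neutrophil genes S100A8 and MPO are not among those found. CATHL1B and CATHL3, the neutrophil granule genes named above, were outside the neutrophil list, although well above background on 16 of 16 arrays. Of 10 astrocyte genes 4 were found, and GFAP was 0.79 higher after hypoxia and differed by -0.54 with ketamine before it, both called. AQP4, GJA1 and FGFR3 were not called, at 0.029, 0.086 and 0.025 after hypoxia and at -0.17, -0.12 and 0.37 with ketamine before it. FGFR3 was well above background on 1 array. The listed astrocyte gene SLC1A2 is named EAAT2 on the array, so it was not matched and is not among the 4. Of 11 red blood cell genes 2 were found, with AHSP 0.89 higher after hypoxia and called, and HBB 0.59 higher and not called. Of 11 endothelial genes 4 were found, and OCLN differed by -0.38 after hypoxia and by 0.43 with ketamine before it, both called. PECAM1, FLT1 and KDR were not called, at -0.12, 0.097 and -0.085 after hypoxia and at 0.062, -0.14 and -0.016 with ketamine before it. Of 8 choroid plexus genes 4 were found, and TTR, which encodes transthyretin, differed by -4.30 after hypoxia and was called (SE 1.64). Its levels were 16.00, 15.55 and 9.33 in the normoxia controls and from 6.78 to 11.56 in the hypoxia controls, so that normoxia controls 1 and 2 stood above all others. The other choroid plexus genes found did not follow TTR. After hypoxia IGF2 differed by 0.42, IGFBP2 by 0.11 and AQP1 by -0.032, none of them called, and the list median was 0.041. Summed over the 4 choroid plexus genes the linear level was between 10939 and 82619 in the normoxia controls, 9033 and 26065 with normoxia + ketamine, 9492 and 34866 in the hypoxia controls and 6426 and 17120 with hypoxia + ketamine. The part of neutrophils, lymphocytes, blood, astrocytes, endothelium or choroid plexus in the levels of LYZ, FCER1G, CTSS and FCGR1A was not tested.

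The arrays lay on 2 slides, with every group on both. Within slides 1 and 2 the differences of hypoxia control from normoxia control kept their direction, at 0.47 and 0.64 for FCER1G, 0.33 and 0.30 for FCGR1A, 0.44 and 0.28 for CTSS, and 0.11 and 0.20 for CTSB. Slide 2 held a single normoxia control, replicate 3, the array without which FCER1G was not called. With the slide as a block in the fit, CTSB differed by 0.15 and was not called. The difference of FCGR1A between hypoxia + ketamine and hypoxia control was -0.36 on slide 1 and -0.55 on slide 2.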

How the data were processed

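RNA from the frontal cortex of 16 fetuses was labelled with cyanine 3 and hybridized to 1-colour Agilent sheep arrays by the authors, who deposited the scanner's intensity of each of 15744 spots per array, from Feature Extraction 10.1.1.1 per the file headers. Their deposited table of processed log2 values, background corrected and quantile normalized, served as an alternative. Spot means were corrected by normexp (offset 50) on the local background, 222 outlier-flagged spots and 536 control spots were left out, arrays were quantile normalized, and spots of a probe were averaged. Names were found for 1656 probes through the files and the RefSeq gene table. For a gene with several probes, the one with the highest mean stands for it and the others are named second probes. The groups were fitted together in limma 3.58.1 (R 4.3.3) with a common spread, and called at an unadjusted P under 0.05 with no filter on dim probes. Exact permutation tests over fetuses were two-sided, with the smaller tail doubled (scipy 1.17.1). The fit was tested on simulated data. The genes named are the 7 members, the genes of hand-written lists that were called or bear on the members, and for likeness the 5 genes of highest r. Members and lists were chosen with earlier results of these data known. The number of arrays limits the precision, and twin fetuses of a ewe may be less independent than the tests assume. As alternatives the background correction, the normalization, the groups fitted and the group of hypoxia control replicate 1 were changed, dim probes were filtered, slide or replicate number was a block, and arrays were left out in turn.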

Additional observations from a re-analysis of the deposited data

Results flagged for a closer look

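FCGR1A was looked at again because its response to hypoxia differed with and without ketamine by a test of the difference itself, the interaction of -0.65 on the log2 scale in limma (SE 0.28, adjusted P = 0.772, called at the unadjusted threshold). In 30 sets of 4 or 5 arrays, 10 probes in 3 groups, 0 arrays stood apart from their group by Dixon's test, where chance alone would pick about 1 set in 20.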

How the results depend on the processing

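Members called higher after hypoxia fell from 2 to 1, FCER1G, with the scanner's processed signal under either normalization, the median spot signal, background-corrected signals scaled to the 75th percentile or the slide as a block, rose to 4 when replicate 1 of hypoxia control was counted as normoxia + ketamine, and were 0 after Benjamini-Hochberg adjustment. Calls over all probes moved too. Probes called higher went from 501 to 444 with the processed signal quantile normalized and 560 with it scaled to the 75th percentile. They were 493 with the median spot signal, 137 with background-corrected signals so scaled, 496 with the slide as a block and 580 with the other label of replicate 1. With each array left out they ranged from 0, without normoxia control replicate 3, to 4, without hypoxia control replicate 4 or hypoxia + ketamine replicate 2, and were 1 without normoxia control replicate 1 or hypoxia control replicate 3 or 5. Members called between hypoxia + ketamine and hypoxia control, 1 in all, were 0 with 75th percentile scaling of background-corrected signals, with only those groups in the fit and after adjustment, and ranged from 0 to 2 with arrays left out, being 2 without hypoxia + ketamine replicate 2. Over all probes, those called lower went from 535 to 113 with that scaling and to 337 with only those groups. Members called in the interaction, 1 in all, were 0 with that scaling and after adjustment and ranged from 0 to 2, being 2 without hypoxia + ketamine replicate 3. Probes with an interaction called lower went from 362 to 84 with that scaling. Between hypoxia + ketamine and normoxia + ketamine, 1 member, LYZ, was called with that scaling, and 0 to 1 with arrays left out. There the probes called higher went from 468 to 184 with that scaling. For normoxia + ketamine against normoxia control all counts were 0.

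That scaling moved the median of all probes by -0.16 after hypoxia, 0.21 for hypoxia + ketamine against hypoxia control, -0.30 for ketamine in normoxia and 0.38 for hypoxia under ketamine. FCGR1A turned to -0.32 and LYZ to -0.45 for ketamine in normoxia, FCGR1A to 0.25 for hypoxia under ketamine, and the interactions of FCGR1A to 0.096 and LYZ to 1.095. LYZ between hypoxia + ketamine and hypoxia control turned to -0.083 when replicate 1 of hypoxia control took its other label, and ranged from -0.35 to 0.41 with arrays left out. CTSS for ketamine in normoxia turned to -0.0015 in the authors' processed values, and ranged from -0.042 to 0.092. With arrays left out, CTSS ranged from -0.097 to 0.17 and CTSB from -0.071 to 0.0048 for hypoxia under ketamine, and the LYZ interaction from -0.57 to 0.20. The cause of these changes was not tested.

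The labels tie no replicate number to a ewe, but the numbers follow the slides. Replicates 1 and 2 of every group lay on slide 1 and replicates 3 and above on slide 2, so a replicate block also takes in the slide. Same-numbered arrays of different groups correlated between -0.11 and 0.37 in their deviations (median 0.044, against -0.022 for other pairs), and the numbers were not taken to pair the samples. With the replicate block the members called were 2 after hypoxia, CTSS and FCER1G, 2 for hypoxia + ketamine against hypoxia control, CTSS and FCGR1A, and 2 for the interaction, FCER1G and FCGR1A. Calls over all probes rose too. They went from 501 higher and 696 lower to 635 and 853 after hypoxia. For hypoxia + ketamine against hypoxia control they went from 824 and 535 to 946 and 663, and for the interaction from 591 and 362 to 703 and 490. Among the arrays, 10 of 15 correlated best with an array of their own number, a hint from the data and not from the design. The share that chance alone would give was not worked out, and arrays of the same number also share a slide. Signal over background limits FCGR2B, ITGAM and LYZ, and FCGR1A was dim on hypoxia + ketamine replicates 1 and 4.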
